A study of Mus musculus and Oryctolagus cuniculus and Sus scrofa with 20 samples.

Results

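Small RNA of mouse round spermatids was set against that of mature sperm, the stages before and after the spermatid is remodelled into a sperm cell. They are 2 of 20 libraries in a series on an X-linked miRNA family of male germ cells in several mammals, and 2 of its 7 libraries of wild type mouse germ cell stages. Both come from untreated male C57BL/6 wild type mice; the cells labelled round sperms, here called round spermatids, came from testes of postnatal day 25, while no age or collection site is given for the mature sperm. Total RNA was extracted with TRIzol and sequenced as small RNA on an Illumina instrument. Each side is 1 library, so no difference here has a replicate check or a test, and every ratio compares these libraries. Nothing says whether a library holds 1 or several animals.

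The deposited lists give each distinct read sequence, called a tag here, with its count of reads. The round spermatid list holds 23552284 reads in 2570481 tags, and the mature sperm list 25908109 reads in 580923 tags. Tags run from 17 to 41 nt in both. Intervals given below are 95% exact intervals, cover counting error only, and take no account of PCR copies, since the reads carry no molecular identifiers. Levels are shares of a library, so a lower share may go with fewer molecules per cell or with more of other RNAs, and these cannot be told apart.

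In the male germ line, piRNAs are RNAs of about the length of the main read peak that guide PIWI proteins; those of pachytene spermatocytes and round spermatids come largely from long non-coding transcripts, mostly begin with U, and are lost as spermatids elongate. MicroRNAs are shorter guides of Argonaute proteins that recognise targets by bases 2 to 8, the seed; the miR-34/449 family is abundant from pachytene onward. Sperm are also known for 5' fragments of tRNAs, which are cut in or near the anticodon loop, and for fragments of rRNA.

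The mature miRNAs on which the comparison turns are given first, from RefSeq on GRCm38.p6, with the seed in capitals and in groups of a shared seed. They were chosen as the most abundant or the most changed miRNAs.
miR-34b-5p, chr9:51103610-51103632 on the minus strand: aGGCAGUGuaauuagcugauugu
miR-449a-5p, chr13:113037549-113037570 on the plus strand: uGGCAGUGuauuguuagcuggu
miR-16-5p, chr3:69009918-69009939 on the plus strand: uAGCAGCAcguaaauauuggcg
miR-15a-5p, chr14:61632075-61632096 on the minus strand: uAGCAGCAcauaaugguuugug
miR-497a-5p, chr11:70234730-70234751 on the plus strand: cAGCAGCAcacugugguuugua
miR-10a-5p, chr11:96317186-96317208 on the plus strand: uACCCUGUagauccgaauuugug
miR-10b-5p, chr2:74726074-74726096 on the plus strand: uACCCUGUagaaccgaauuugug
miR-200a-3p, chr4:156054911-156054932 on the minus strand: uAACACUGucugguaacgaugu
miR-141-3p, chr6:124717917-124717938 on the minus strand: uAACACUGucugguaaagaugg
miR-221-3p, chrX:19146307-19146329 on the minus strand: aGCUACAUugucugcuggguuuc
miR-222-3p, chrX:19146901-19146923 on the minus strand: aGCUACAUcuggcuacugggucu
miR-741-3p, chrX:66796809-66796831 on the minus strand: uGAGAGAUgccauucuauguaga
miR-871-3p, chrX:66810438-66810460 on the minus strand: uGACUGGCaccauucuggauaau
miR-92a-3p, chr14:115044476-115044496 on the plus strand: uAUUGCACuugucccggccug
miR-191-5p, chr9:108568325-108568347 on the plus strand: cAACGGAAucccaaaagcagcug
miR-99a-5p, chr16:77598940-77598961 on the plus strand: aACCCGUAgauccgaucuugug

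The tags that carry the other differences are given next, as they stand in the deposited lists. The first 3 are 5' fragments of tRNA-Gly that share a start and differ in their 3' end, with the bases after base 30 in capitals.
tRNA-Gly, 30 nt: gcattggtggttcagtggtagaattctcgc
tRNA-Gly, 31 nt: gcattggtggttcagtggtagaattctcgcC
tRNA-Gly, 32 nt: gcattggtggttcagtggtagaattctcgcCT
The most abundant tags of the mitochondrial tRNA-His start with gg before the annotated first base, and the capital marks base 8 of the annotated tRNA.
mt-tRNA-His, A8T: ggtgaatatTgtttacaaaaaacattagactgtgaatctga
mt-tRNA-His, A8G: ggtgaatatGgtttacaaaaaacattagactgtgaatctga
mt-tRNA-His, annotated base: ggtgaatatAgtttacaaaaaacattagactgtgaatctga
The leading recognised sperm tags of 28S, 5.8S and 18S rRNA begin at or near the 5' end of those molecules. For 28S and 5.8S rRNA the matching favours this, because they were recognised only near their 5' ends and at a few inner sites.
28S rRNA: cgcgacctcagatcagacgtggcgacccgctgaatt
5.8S rRNA: cgactcttagcggtggatcactcggctcgt
18S rRNA: tacctggttgatcctgcc
Of the 5 most abundant piRNA-sized tags of round spermatids, the 4 that match a transcript of the reference are shown, with bases 1 and 10 in capitals; the first 3 share their start, and the tag left out had 65436 reads.
Gm21269, 31 nt: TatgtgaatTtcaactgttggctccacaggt
Gm21269, 30 nt, ending in t: TatgtgaatTtcaactgttggctccacagt
Gm21269, 30 nt, ending in g: TatgtgaatTtcaactgttggctccacagg
Gm14244, 31 nt: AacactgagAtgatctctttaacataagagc

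Round spermatid RNA was mostly of piRNA size, and mature sperm RNA was mostly fragments of tRNA and rRNA with miRNAs. Unannotated reads of 25 to 32 nt, called piRNA-sized here, made up 81.8% of round spermatid reads and 10.5% of mature sperm reads, a share 7.76-fold lower. Reads of tRNA made up 1.82% and 38.4%, which is 21.1-fold higher in sperm, and reads of rRNA 0.260% and 22.1%, which is 85.02-fold higher. miRNA reads made up 2.91% and 14.6%. Unannotated reads over 32 nt made up 3.31% and 3.80%, and those of 17 to 24 nt 9.01% and 7.83%. Their summed shares were alike, but single tags within them were not. The rRNA shares are lower bounds, because 28S and 5.8S rRNA were recognised only near their 5' ends and at a few inner sites. Pieces of rRNA that were not recognised fall in the unannotated classes, the piRNA-sized class among them. The share of all reads of 25 to 32 nt was 83.6% in round spermatids and 40.98% in sperm, and it hides the change of class, because the sperm reads of that size are largely tRNA fragments.

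Read length followed the same split. The most common length was 30 nt in both, with 27.6% of round spermatid reads and 14.2% of sperm reads. In round spermatids 31 nt held 19.8% and 29 nt 15.0%, with minor peaks at 22 nt and at 19 nt (1.70%). Sperm had further peaks at 22 nt (10.5%), where most reads were miRNA, and at 36 nt (9.91%), where most were rRNA. At 41 nt, the longest length in both lists, sperm had 4.29%, mostly tRNA. Whether these reads come from longer fragments was not tested. Lengths of 22, 36 and 41 nt held 2.42%, 0.301% and 0.105% in round spermatids.

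**Figure D1:**
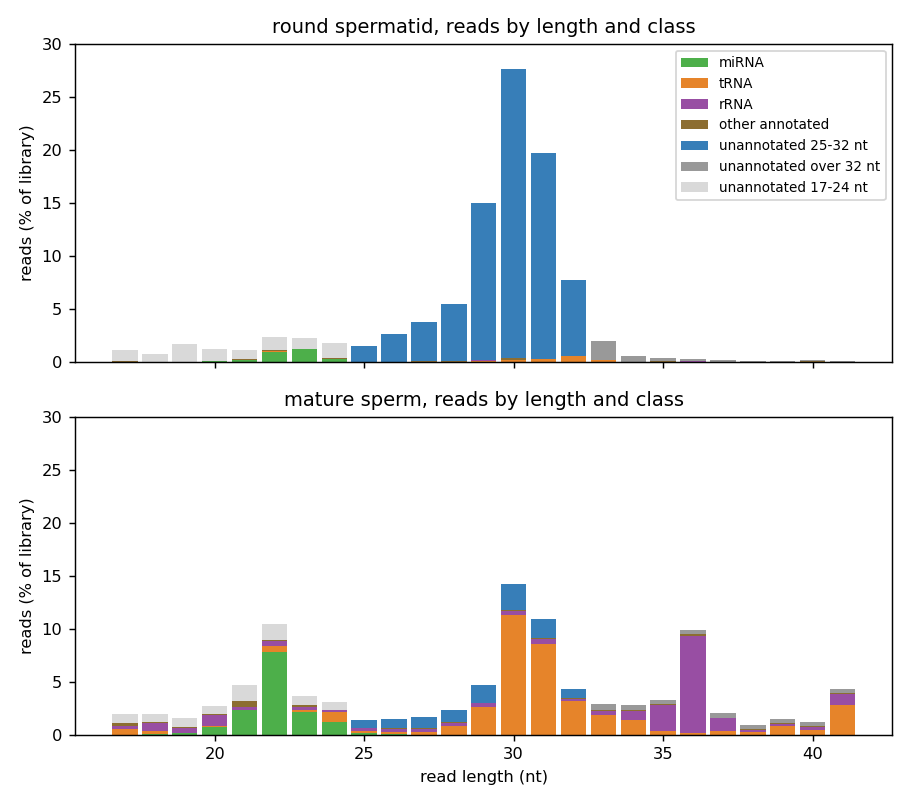
Share of all reads at each read length (nt) in the round spermatid library (top) and the mature sperm library (bottom), on the same axis, with bars stacked by class. The round spermatid peak at 30 nt is nearly all unannotated 25 to 32 nt reads, while the sperm bars at 22, 36 and 41 nt are mostly miRNA, rRNA and tRNA.

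The most abundant miRNA of round spermatids, miR-34c-5p, was far lower in sperm, where miR-191-5p, miR-10b-5p, miR-10a-5p and miR-99a-5p led. Levels of miRNAs are reads per 1000000 miRNA reads, of which round spermatids had 685570 and sperm 3791487. A minimum of 100 reads on either side left 246 miRNAs. Of these, 61 (24.8%) had a ratio of 4-fold or more in favour of sperm and 50 (20.3%) in favour of round spermatids; the median log2 ratio was 0.11. Scaled to all reads instead, 145 were higher and 10 lower, because every ratio moves up by 2.33 on the log2 scale. Changes below are therefore changes within the miRNA pool, and any fall of less than that size on the log2 scale is a rise per read of the library.

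Among the miR-34/449 family, which is known for roles in spermatogenesis and multiciliated cells, miR-34c-5p stood at 240883 in round spermatids and 4837 in sperm. That is 49.8-fold lower, a log2 ratio of -5.64 (interval -5.66 to -5.62), and took its share of miRNA reads from 24.1% to under 1%. miR-449a-5p, of a second locus, went from 4650 to 107, a log2 ratio of -5.44, and miR-34b-5p from 171 to 6.07, a log2 ratio of -4.81, on 23 sperm reads. The 3' arms of the same hairpins kept their level: miR-34b-3p stood at 11325 and 10918, and miR-34c-3p at 2157 and 2303. Of the 5 tested members of this family, 3 were at least 4-fold lower and none higher, beside 20.3% of all miRNAs tested. The median log2 ratio was -4.81. The family was lower under both scalings, at 7546 and 2661 reads per 1000000 of all reads. Among the other mouse stages, miR-34c-5p stood at 169967 in pachytene spermatocytes and 119 in pre-leptotene spermatocytes, so its level in sperm was lower than in pachytene.

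The split between arms was not confined to miR-34. Of 45 hairpins with both arms at 100 reads or more in a library, 12 had arms at least 4-fold apart in their ratio, 9 of them with the 5' arm lower. Among these 9, the 3' arms of miR-191, miR-28a, miR-409, miR-93 and miR-20a met the minimum through sperm alone. An arm that low in round spermatids enters only if often read in sperm, which favours a split in this direction. For miR-34c, miR-34b, miR-340 and miR-878 both arms had over 100 reads in round spermatids. The 3' arm was the lower for miR-871, whose 5p strand had a log2 ratio of 0.36 and whose 3p strand had one of -3.87 (60119 and 4102). The 5' arm was the lower for miR-191, by a log2 difference of -3.02 that rests on 15 round spermatid reads of the 3' arm, and for miR-340, by -3.44. The median difference between arms, without sign, was 0.95 on the log2 scale.

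The X-linked miR-506 family, the subject of the series, took a smaller part of the miRNA pool in sperm, chiefly through its most abundant members, but a larger part of all reads. Together the 28 members found made up 21.7% of miRNA reads in round spermatids and 7.48% in sperm, and 6316 and 10953 reads per 1000000 of all reads, so the direction flips with the scaling. Of the 24 members of the list that were tested, 5 were lower by 4-fold or more and none higher, beside 20.3% of all miRNAs tested; the median log2 ratio was -0.59. miR-741-3p, its most abundant member, stood at 100627 and 22917, a log2 ratio of -2.13. miR-883a-3p had one of -2.69 (3336 and 515). Others differed little, among them miR-743b-3p at 10259 and 11056, and miR-470-5p at 8877 and 9636. The miR-465a-5p, miR-465b-5p and miR-465c-5p strands had log2 ratios of 0.31, -0.43 and -0.41, but their loci are near copies, so a sequencing error can move a read from 1 to another. The list leaves out miR-465c-3p, miR-741-5p and miR-743a-5p, which had log2 ratios of -2.25, -1.50 and 0.23, so a count with them would hold 1 more member at least 4-fold lower.

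The miR-17 and miR-106 clusters are known for promoting proliferation. Of 8 tested members, 5 were at least 4-fold lower and none higher (median log2 -2.46), beside 20.3% of all miRNAs tested. Summed per 1000000 of all reads the clusters stood at 1083 and 1389, the other direction. Their most abundant member, miR-92a-3p, stood at 24087 and 1996, a log2 ratio of -3.59 (interval -3.63 to -3.55). Of the group with the seed AGCAGCA, 3 of 5 were at least 4-fold lower, with miR-497a-5p at 384 and 3.96 and miR-15a-5p at 258 and 8.70; the most abundant, miR-16-5p, was 1.76-fold lower. Summed over all reads this group too was higher in sperm, at 894 and 1879 per 1000000. miR-30e-5p, at 10183 and 1350, was 7.55-fold lower while miR-30c-5p, an entry that also takes miR-30b reads, stood at 29422 and 30640.

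miR-191-5p, the first in sperm, made up 32.2% of sperm miRNA reads, and stood at 179976 in round spermatids and 321803 in sperm, 1.79-fold higher. The miRNAs of the Hox clusters were higher throughout: miR-10a-5p stood at 4373 and 84326, a log2 ratio of 4.27 (4.22 to 4.32), and miR-10b-5p at 14436 and 92499, a log2 ratio of 2.68. miR-196a-5p and miR-196b-5p had no read in round spermatids and 312 and 304 reads in sperm. With a count of 0 set to 3 they were 18.8-fold and 18.3-fold higher, with lower limits of 3.93 and 3.89 on the log2 scale. Both met the minimum of reads through sperm alone, which favours a higher level there. miR-99a-5p stood at 6701 and 58160, a log2 ratio of 3.12. The let-7 family is known for differentiation. Of its 8 tested entries, 5 were at least 4-fold higher and none lower (median log2 2.36), beside 24.8% of all miRNAs tested. Of the 5, let-7b-5p, let-7e-5p and miR-98-5p met the minimum through sperm alone, with 41 reads or fewer in round spermatids. That favours a higher level in sperm. let-7d-5p and let-7f-5p met it in both libraries, and were 5.75-fold and 4.58-fold higher. let-7b-5p stood at 59.8 and 1658. let-7g-5p, the most abundant in round spermatids, was level at 25205 and 25553.

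**Figure D2:**
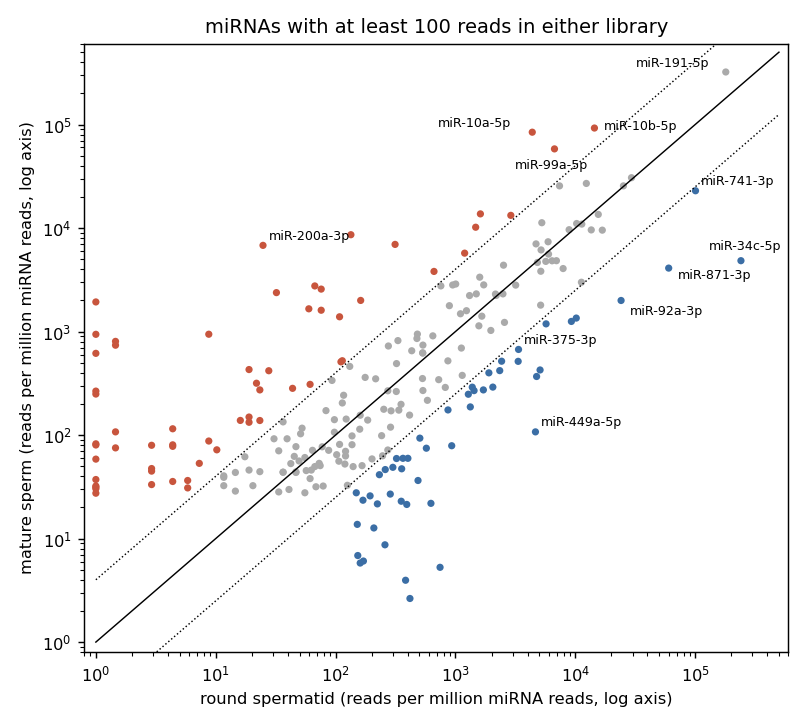
Levels of the 246 miRNAs with at least 100 reads in a library, in round spermatids (x axis) and mature sperm (y axis), in reads per 1000000 miRNA reads on log axes, with levels under 1 drawn at 1. The solid line marks equal levels and the dotted lines 4-fold; red points are at least 4-fold higher in sperm, blue points at least 4-fold lower, and miR-34c-5p, miR-449a-5p and miR-871-3p lie far below the line.

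Of the 10 largest rises, 6 were members of the epithelial or blood cell marker lists. These lists held 8 and 5 of the 246 miRNAs tested, and were chosen with earlier results of these data known. miR-200a-3p went from 17 to 25788 reads (24.8 and 6802 per 1000000), miR-141-3p from 22 to 9015 reads, and miR-429-3p from 1 to 2798 reads, a log2 ratio of 8.98 with an interval of 6.50 to 14.29. These belong to the miR-200 family of epithelia. miR-150-5p and miR-451a, known from lymphocytes and red cells, had no read in round spermatids and 7325 and 3565 reads in sperm. With a count of 0 set to 3 they were 441-fold and 215-fold higher, with lower limits of 8.49 and 7.45 on the log2 scale. miR-222-3p and miR-221-3p, which share a seed and a locus, went from 1 and 6 reads to 3047 and 3572. Per 1000000 miRNA reads they stood at 804 and 942 in sperm, and at 577 and 2114 in cultured spermatogonial stem cells of the series. In the stages from pre-leptotene spermatocytes to round spermatids both were low. There miR-222-3p was at most 1.74, in pre-leptotene spermatocytes, and miR-221-3p at most 26.97, in pachytene spermatocytes. The source of their sperm reads was not tested. Of all 246 miRNAs tested, 24.8% were at least 4-fold higher in sperm and 20.3% at least 4-fold lower. Beside these shares, the marker lists moved as follows. Of 8 epithelial markers tested, 6 were at least 4-fold higher and 1, miR-375-3p, at least 4-fold lower, and their summed share of miRNA reads was 0.359% in round spermatids and 1.63% in sperm. Of the 7 blood cell markers, the 5 with enough reads to be tested were higher. Each of these 5 met the minimum of reads through sperm alone, with 92 reads or fewer in round spermatids. A marker that low in round spermatids was tested only if often read in sperm, which favours a higher level there. The summed shares of all 7 were 0.0181% and 1.18%. miR-142a-3p, a leukocyte marker under the minimum, was lower, with 22 and 21 reads and a log2 ratio of -2.53 (-3.47 to -1.60), and miR-142a-5p had 9 and 78 reads; 3 of the 7 in the list (miR-451a, miR-150-5p and miR-223-3p) had no read in round spermatids. Of 8 stromal and muscle markers tested, 6 were higher, with shares of 0.207% and 1.67%. All of those tested but miR-143-3p, and all tested epithelial markers but miR-375-3p, also met the minimum through sperm alone. The part of other cells in any sperm level given here was not tested. Of the gonadal somatic markers, 0 of 2 tested were at least 4-fold higher and 1, miR-202-5p, was lower, and both tested liver and neural markers were lower.

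The largest falls besides these were on few reads: miR-7210-3p from 286 to 10 reads, miR-3471-5p from 510 to 20, and miR-497a-5p from 263 to 15. Tags that carry the whole mature sequence made up 7 of the 510 round spermatid reads of miR-3471-5p, and 219 of the 263 of miR-497a-5p; neither had such a read in sperm. Across the 246 miRNAs, the Spearman correlation of the log2 ratio with the number of G and C in the first 18 nt was 0.14; the points share both libraries and no test was made.

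Most abundant piRNA-sized tags of round spermatids were still read in sperm, at far lower levels. Of 21157 piRNA-sized tags with at least 100 reads in round spermatids, 15689, or 74.2%, had at least 1 read in sperm. Together they stood at 467816 reads per 1000000 reads in round spermatids and 35849 in sperm, 13.0-fold lower. Of the 21157, 19467 (92%) were at least 4-fold lower, 4 were at least 4-fold higher and 37 were higher at all, with a median log2 ratio of -4.27 when a count of 0 is set to 3. The tags were chosen by their round spermatid reads, which favours a lower level in sperm. The share kept was 65.8% for tags of at least 100 and under 300 reads, and 89.9% from 300 to under 1000. It was 99.2% from 1000 to under 10000, and 87 of 87 tags of 10000 or more were kept. Because 1 sperm read counts as kept, a more abundant tag is more likely kept at the same fall, so this rise is no result. The median log2 ratios were, in the same order, -4.35, -4.14, -4.19 and -4.69.

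The 31 nt Gm21269 tag was the most abundant piRNA-sized tag of both libraries. It had 242722 reads in round spermatids and 23371 in sperm, 11.4-fold lower per 1000000 reads, and the 30 nt tag ending in t had 223675 and 11080, 22.2-fold lower. The Gm14244 tag had 108353 and 3285 reads, 36.3-fold lower. Over all round spermatid tags of at least 20 reads that match a transcript of the reference in sense, Gm21269 (chr7:73816546-73838898 on the plus strand, annotated as a lincRNA on GRCm38) held 834635 reads in round spermatids and 63955 in sperm, 14.4-fold lower. Gm14244 (chr2:127691899-127700488 on the plus strand) held 166621 and 5966, 30.7-fold lower. The 44 such genes with at least 5000 round spermatid reads had log2 ratios from -5.86 (Exoc8) to -2.15 (Gm10505), with a median of -3.81. Tags and genes were chosen by their round spermatid reads, so that all were lower is no result. In sense, 16.6% of the round spermatid reads and 15.3% of the sperm reads of the tags of at least 20 reads were placed on a transcript, and genes that overlap or lie next to each other share tags.

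Among these tags, chosen by their round spermatid reads, the summed level of those of 25 nt was 7.14-fold lower in sperm, of 28 nt 9.55-fold, of 30 nt 14.03-fold and of 32 nt 16.8-fold. Over all piRNA-sized reads the fold was lowest at 25 nt and highest at 30 nt, not at 32 nt: 2.09-fold at 25 nt, 4.97-fold at 28 nt, 10.99-fold at 30 nt, 10.7-fold at 31 nt and 8.36-fold at 32 nt. Where tags share their first 24 nt, the 3' end itself was slightly shorter in sperm: over 1465 such starts, the mean length fell by 0.10 nt at the median, and it was lower in sperm at 64.9% of them. Of all piRNA-sized reads, 89.9% began with T in round spermatids and 67.8% in sperm. Sperm reads of tags that also occur in round spermatids began with T in 83.7%, and those of the remaining tags in 36.3%. Base 10 was A in 32.98% and 29.4% of reads.

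Read from the other side, 2680 piRNA-sized tags had at least 100 reads in sperm. Of these, 2128, or 79.4%, had at least 1 read in round spermatids. Of these 2680 tags 889 were at least 4-fold higher in sperm and 1189 at least 4-fold lower. The sperm tags absent from round spermatids numbered 552 and began with T in 20.7% of their reads. How many of the higher or absent tags are unrecognised rRNA was not tested.

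**Figure D3:**
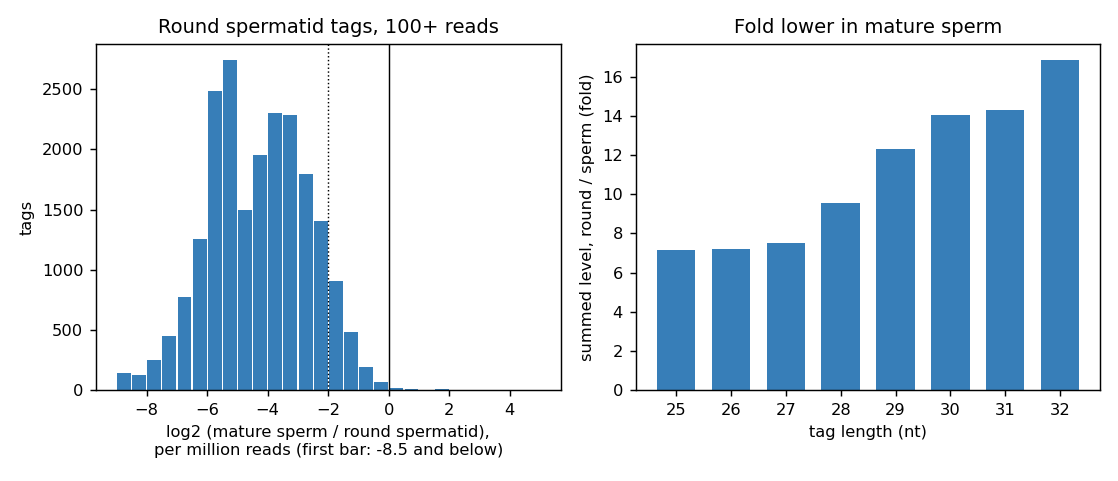
Left, log2 ratio of mature sperm to round spermatids, per 1000000 reads, for the 21157 piRNA-sized tags chosen for at least 100 round spermatid reads, with tags of no sperm read set to 3 reads and the dotted line at 4-fold lower. Right, how many fold lower the summed level of these tags was in sperm, by tag length in nt, rising from 7.14 at 25 nt to 16.8 at 32 nt.

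Fragments from the 5' end of tRNAs, led by tRNA-Gly, were the largest class in sperm. Reads that begin at the first base of a tRNA made up 1.07% of round spermatid reads and 26.7% of sperm reads. As a check of the matching, the A box, the promoter element inside tRNA genes, lay in the position it has in a tRNA in 2.01% of round spermatid reads of 30 nt or more and 43.3% of those in sperm, and at shifted positions in 0.0606% and 0.0463%. tRNA-Gly held 213501 reads in round spermatids and 6083404 in sperm (9065 and 234807 per 1000000), 25.9-fold higher, a log2 ratio of 4.70 (4.69 to 4.70). Nuclear tRNA groups differed in size of change: tRNA-Glu was 13.8-fold higher, tRNA-Val 16.7-fold, tRNA-Lys 15.4-fold and the Leu or Ser group 40.8-fold, while tRNA-His was 2.04-fold and tRNA-Asp 1.71-fold higher. Reads that end in the CCA of the tRNA 3' end were 9.79-fold higher, at 544 and 5327 per 1000000.

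The tRNA-Gly fragments also differed in their 3' end. On the start shown above, the 32 nt tag held 85.3% of 100447 round spermatid reads, and the 30 nt and 31 nt tags 1.36% and 4.27%. In sperm the 30 nt tag held 47.6% of 3779530 reads, the 31 nt tag 39.2% and the 32 nt tag 9.57%. The 30 nt tag therefore went from 58.2 to 69407 reads per 1000000, while the 32 nt tag went from 3638 to 13959, 3.84-fold higher. The first bases of the Gly fragments varied as well: of the 200994 round spermatid and 5938731 sperm reads with the 20 bases that follow, the start gcattggt had 48.0% and 63.4%, and the shorter start gcattgt had 19.2% and 14.8%.

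**Figure D4:**
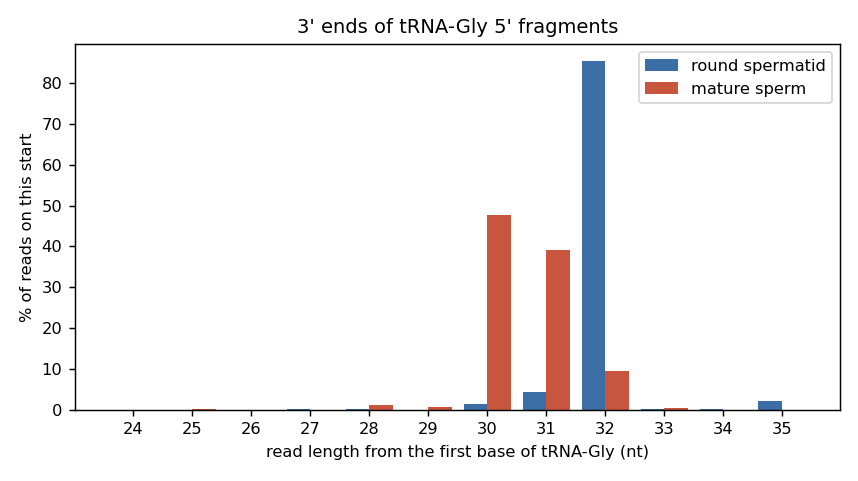
Share of reads (%) at each length in nt among tRNA-Gly fragments with the same first base, in round spermatids (blue) and mature sperm (red). Round spermatid reads sit at 32 nt and sperm reads at 30 and 31 nt.

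Mitochondrial tRNA-His showed the largest rise of any tRNA group with over 1000 reads in both libraries, from 1776 to 1278910 reads (75.4 and 49363 per 1000000), 655-fold higher, a log2 ratio of 9.35 (9.29 to 9.42). Its start could be read in 1344 round spermatid and 983373 sperm reads, those that match the annotated tRNA on both sides of base 8. Of these, 92.8% and 98.7% carried gg before the annotated first base; the addition of a base there is known of tRNA-His. Base 8, counted from the first annotated base, varied in the same reads: A8T made up 44.0% in round spermatids and 32.2% in sperm, A8G 37.3% and 28.2%, and the annotated base 16.9% and 38.0%. Bases 7 and 9 differed from the annotation in 0.308% and 1.93% of sperm reads. Such a difference was not confined to this tRNA. In sperm it was 77.3% at base 9 of mt-tRNA-Asn, 54.4% at base 9 of mt-tRNA-Val and 16.7% at base 8 of mt-Ts1. Base 9 of mt-tRNA-Lys had 9.52%. In mt-tRNA-Gln, mt-tRNA-Met and mt-Ts2 it was at most 3.61% at bases 8 and 9. The cause of these differences was not tested. Other mitochondrial tRNAs moved less: mt-tRNA-Gln was 24.7-fold higher, and mt-Ts2, a serine tRNA, was level at 359 and 346 per 1000000.

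Fragments of rRNA showed the largest fold change of share of any class, from a low share in round spermatids. The 5' end of 28S rRNA held 29103 reads in round spermatids and 3999919 in sperm, 125-fold higher, a log2 ratio of 6.97 (6.95 to 6.98), and 36 nt was its most common length in both, with 43.3% and 58.4%. The 5' end of 5.8S rRNA was 167-fold higher (58.8 and 9825 per 1000000), 18S rRNA 53.3-fold (461 and 24569) and 5S rRNA 37.8-fold (132 and 5009). In 18S rRNA, reads from base 1 numbered 158 in round spermatids and 115143 in sperm, 1.46% and 18.1% of its reads. Mitochondrial rRNA was 41.4-fold higher; 98.1% of round spermatid reads of mt-Rnr2, the large mitochondrial rRNA, began at base 1, against 23.9% in sperm, where further starts inside the molecule had reads.

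**Figure D5:**
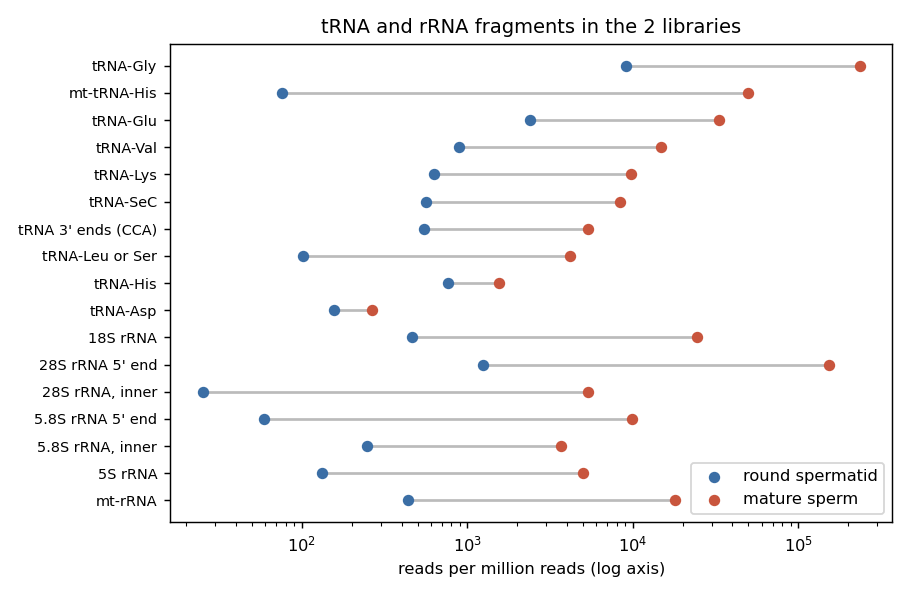
Reads per 1000000 reads (log axis) of tRNA and rRNA groups in round spermatids (blue) and mature sperm (red), joined by a line for each group. Every group shown is higher in sperm, by 1.71-fold for tRNA-Asp to 655-fold for mt-tRNA-His.

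Reads over 32 nt were 3.96% of the round spermatid library and 28.9% of the sperm library. In round spermatids 83.4% of them were unannotated, 7.40% tRNA and 3.26% rRNA. In sperm 54.4% were rRNA, of which the 28S 5' end alone gave 48.9% of the long reads, and 29.5% were tRNA, with 18.4% from mitochondrial tRNAs. Unannotated reads had nearly the same share of each library over 32 nt, as given above, but over 34 nt they made up 0.934% in round spermatids and 2.79% in sperm. The larger share of long reads in sperm lay mostly in rRNA and tRNA.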

How the data were processed

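Per the deposited files, the authors gave each library as distinct sequences with raw counts of reads. The submitters' processing notes name Bowtie and GRCm38 (mm10), without roles; trimming is not given in the sources used here. Each of the 2 libraries was used whole, by exact sequence. Reads of 18 to 26 nt that start with the first 18 nt of a RefSeq mature miRNA counted for it, or, for 64 entries, an arm read off a GENCODE vM21 hairpin. Classes were taken in the order miRNA, tRNA, rRNA, other annotated RNA, then by length. Sequences of nuclear tRNAs and of 28S and 5.8S rRNA were not at hand, so these reads were found by the A box, by 9-base keys from knowledge of the field and by 20 cores of abundant tags, in place of the reference the design named. These keys, the hairpin arms, and the analyses of arms, base content, shared starts and precursor transcripts were chosen after the data were seen. A change is counted at 4-fold; a count of 0 was set to 3. Names were drawn from the 8 most abundant miRNAs of each library, the 10 largest rises and falls, members of the lists, and the 5 leading tags of each other class. Not all of these are named. Among the miRNAs left out were let-7a-5p and miR-26a-5p of the most abundant. The rises miR-221-5p, miR-434-5p and miR-486-5p and the falls miR-3470b, miR-669d-5p and miR-468-5p were left out too. Precursor genes, mitochondrial tRNAs and arms were named after their values were seen. Members and lists were chosen with earlier results of these data known. Intervals are Clopper-Pearson or exact conditional binomial at 95%. The calls were checked on simulated counts. Alternatives changed scaling (with edgeR TMM factors), filters, matching, minimum counts, lengths and the order of classes. Tools were Python 3.11.15, numpy 2.4.6, scipy 1.17.1, matplotlib 3.10.9, R 4.3.3 and edgeR 4.0.16.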

Additional observations from a re-analysis of the deposited data

How the results depend on the processing

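The 61 miRNAs higher and 50 lower by 4-fold became 145 and 10 when scaled to all reads, 33 and 19 with a minimum of 1000 reads, and 62 and 23 when the whole mature sequence had to match. With a minimum of 1 read they were 76 and 130. TMM scaling gave 64 and 49. Counting distinct sequences in place of reads gave, for round spermatids, 0.159% miRNA, 0.494% tRNA, 0.105% rRNA, 0.228% other annotated, 78.8% piRNA-sized, 6.96% over 32 nt and 13.2% of 17 to 24 nt. For sperm these shares were 0.924%, 5.597%, 4.66%, 1.17%, 42.2%, 17.8% and 27.6%. Lengths of 25 to 32 nt then held 79.3% in round spermatids and 47.0% in sperm. Placing tRNA and rRNA before miRNA moved no class beyond its counting interval. The share of round spermatid tags kept was 99.3% at a minimum of 1000 reads, 59.5% when 10 sperm reads were needed, 91.4% when the first 24 nt sufficed, and 5.02% over all tags that begin with T with no minimum. With the minimum of 100 kept, tags that begin with T gave 74.4%, an alternative chosen after seeing the data. The share of sperm tags present in round spermatids was 86.3% at a minimum of 1000 reads. tRNA 5' fragments were 1.53% and 36.3% of reads within 2 nt of the first base, and 0.900% and 23.3% at 25 to 34 nt. rRNA was 0.250% and 20.5% at 20 nt or more, and reads over 34 nt were 1.33% and 23.2%. The cause of these shifts was not tested. No paired analysis was possible because each group holds 1 library with no shared number. Reads on miRNA hairpins that miss the start of a mature miRNA, 0.177% and 1.01% of reads, were left out of the miRNA class, and variable tags of 28S rRNA may sit among unannotated reads, which was not tested.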

Other observations

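Among the other annotated RNAs, snoRNA fragments made up 0.279% of round spermatid reads and 1.08% of sperm reads, while snRNA fragments made up 0.370% and 0.337%. Among the 5 most abundant unannotated sperm tags of 17 to 24 nt, ratios to round spermatids ran from 1.57-fold to 298-fold higher. The first, of 21 nt, had 495 reads in round spermatids and 126494 in sperm, and 60116 in pachytene spermatocytes. Among piRNA-sized tags, the highest ratio of sperm to round spermatids among tags with at least 1000 round spermatid reads belonged to a 27 nt tag with 1975 reads in round spermatids, 2018 in sperm and 9056 in pachytene spermatocytes. The second most abundant piRNA-sized tag of sperm, also of 27 nt, begins with C and had 16 reads in round spermatids and 14910 in sperm. It is piRNA-sized by length alone, and its origin was not tested.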
